A study of Mus musculus with 6 samples.

Results

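Accessible chromatin was described around the genes of 8 transcription factors that drive epithelial-mesenchymal transition (EMT), Snai1, Snai2, Zeb1, Zeb2, Twist1, Twist2, Hmga2 and Sox4. Their regions were taken from peak lists of an ATAC-seq experiment, in which the transposase Tn5 inserts sequencing adapters into open chromatin. A region belonged to a gene when any of its bases lay no farther than 100 kb from the 5′ end that the GENCODE vM1 annotation gives the gene on mm9. This gave 38 of the 39435 regions found in any list, and no region fell to more than 1 of the 8 genes. The choice of genes used no measured value, while it was made with earlier results of these lists known.

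The cells were NMuMG, an epithelial line from normal mouse mammary gland, without any genetic change in all groups. They were deprived of serum and insulin for 6 h. They were then given vehicle for 2 h, TGFβ1 at 5 ng/ml for 2 h, or the same TGFβ1 dose for 12 h. The vehicle was HCl with BSA, which the vehicle sample labels call Tris-HCl with BSA. Each condition had 2 biological replicates, and the authors made 1 list of reproducible peaks from both of them. A condition therefore gave 1 value per region, without a spread between replicates, and no test between conditions was run. Vehicle was collected at the early time alone, so TGFβ and the longer time without serum cannot be told apart at 12 h.

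Snai1 and Snai2 (also called Slug) are zinc finger repressors, and so are Zeb1 and Zeb2. They bind E-boxes, short sites in promoters such as that of the E-cadherin gene, and silence epithelial genes. Twist1 and Twist2 are basic helix-loop-helix factors that bind a broader class of E-boxes. Hmga2 is an AT-hook protein that bends DNA and is known to act upstream of Snai1 in TGFβ-treated mammary cells, and Sox4 is an HMG-box factor known as a TGFβ target.

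As a check of the lists as a whole, 5′ ends of marker genes were looked up. Of 7 epithelial markers, 2 (Krt8 and Krt18) were covered by a region in vehicle, 3 at 2 h and 4 at 12 h, while the 5′ ends of Epcam, Krt19 and Cldn7 were in no list. None of 4 leukocyte, 3 endothelial and 3 fibroblast markers was covered in any list. After peaks under 150 bp were dropped and gaps under 1000 bp were closed, the lists held 16765 regions for vehicle, 32548 for 2 h and 33079 for 12 h. Absence from the shorter vehicle list is thus common for any region, and the main counts below are given beside those over the whole lists.

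Regions present in both TGFβ lists with no vehicle region are called TGFβ-only below. There were 13 of them at 6 of the 8 genes. The sequences that follow were chosen because they lie in merged regions of both TGFβ lists and outside the vehicle regions. They are the AP-1 sites of TGFβ-only regions at Snai1, Zeb2, Twist1 and Sox4, and the ones in parts of 2 shared regions beyond their vehicle edges. Such a part is labelled an extension, and at Snai1 it was joined to the rest by merging across a gap. Dimers of Jun and Fos proteins make up AP-1, whose consensus was searched on both strands as TGACTCA or TGAGTCA. Capitals mark the site, and 25 bases are shown to either side, on the plus strand of mm9.
Snai1 TGFβ-only region, chr2:167376034-167376090: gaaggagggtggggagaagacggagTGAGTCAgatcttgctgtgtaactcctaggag
Snai1 TGFβ-only region, chr2:167378443-167378499: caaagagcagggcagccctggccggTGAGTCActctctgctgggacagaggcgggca
Snai1 TGFβ-only region, chr2:167395944-167396000: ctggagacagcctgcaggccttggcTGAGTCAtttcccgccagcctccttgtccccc
Snai1 extension of a shared region, chr2:167401762-167401818: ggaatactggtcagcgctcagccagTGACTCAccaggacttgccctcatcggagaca
Zeb2 TGFβ-only region, chr2:44875090-44875146: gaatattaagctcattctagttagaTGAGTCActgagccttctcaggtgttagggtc
Zeb2 TGFβ-only region, chr2:44875238-44875294: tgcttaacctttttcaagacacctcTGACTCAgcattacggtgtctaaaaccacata
Zeb2 TGFβ-only region, chr2:44905022-44905078: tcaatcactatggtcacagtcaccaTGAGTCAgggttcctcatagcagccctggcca
Zeb2 extension of a shared region, chr2:44964793-44964849: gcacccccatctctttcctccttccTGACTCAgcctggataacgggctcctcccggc
Twist1 TGFβ-only region, chr12:34726067-34726123: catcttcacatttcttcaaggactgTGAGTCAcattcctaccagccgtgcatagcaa
Sox4 TGFβ-only region, chr13:29009418-29009474: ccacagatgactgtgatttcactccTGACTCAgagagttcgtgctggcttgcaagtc
Sox4 TGFβ-only region, chr13:29009961-29010017: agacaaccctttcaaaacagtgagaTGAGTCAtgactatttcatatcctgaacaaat

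E-boxes, the sites that the Snail and ZEB proteins bind, were searched as CAGGTG or CACCTG, which are the same site read from either strand. A match lay just before the 5′ end of Snai1 itself, and the 150 bases before the Snai1 5′ end, on the gene's strand, are shown with it in capitals.
Snai1 upstream, chr2:167363545-167363694: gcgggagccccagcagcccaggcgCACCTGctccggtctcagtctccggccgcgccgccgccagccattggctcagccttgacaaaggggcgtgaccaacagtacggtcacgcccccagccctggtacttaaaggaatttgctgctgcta
The site began at position -126 from the 5′ end and was covered in all 3 lists. A site of this kind stood in the same 150 bases at 2314 of 22208 protein-coding genes (10.4%). Of the other members, Zeb1 also had one there, at -63 and covered in all lists, and none was found at Snai2, Zeb2, Twist1, Twist2, Hmga2 or Sox4.

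The loci differed widely in how many regions they held. Snai1 had 17, Twist2 and Sox4 had 5 each, Snai2 and Zeb2 had 3 each, Zeb1 and Hmga2 had 2 each, and Twist1 had 1. Over all 22208 protein-coding genes the median number in such a window was 5, with quartiles of 2 and 8. Snai1 thus lay above 98.2% of genes, whereas Twist1 lay above 14.3%. Of the other genes, Twist2 and Sox4 lay at the median and 5 lay below it.

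**Figure D1:**
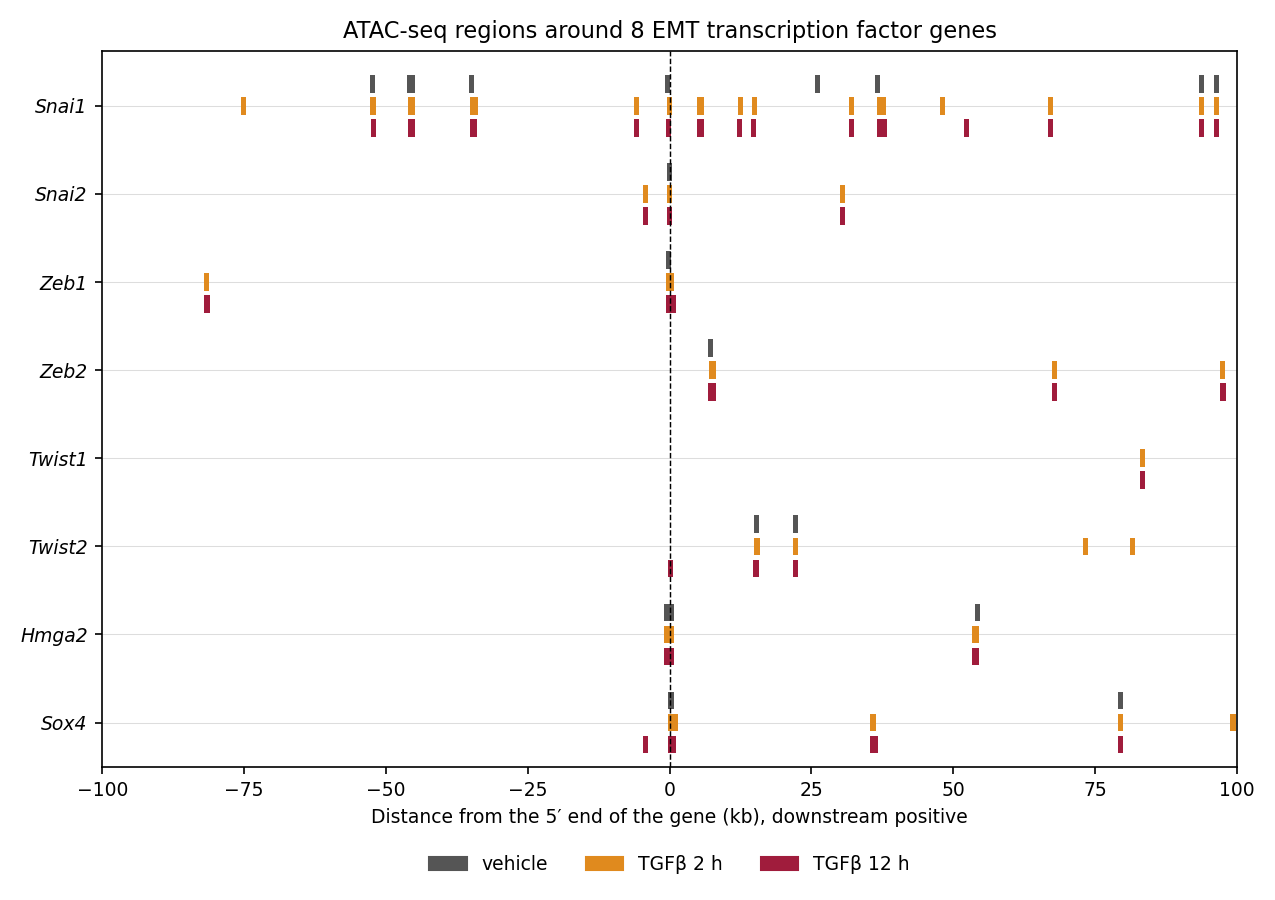
Regions of each list at the 8 genes, by distance from the 5′ end (kb, downstream positive, dashed line at the 5′ end), with bars at least 0.9 kb wide so that narrow regions can be seen. Snai1 had 17 regions in the window and Twist1 had 1, which was in both TGFβ lists.

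Counted by list, the 8 windows held 17 vehicle regions, 34 at 2 h and 32 at 12 h. The ratios to vehicle, 2.00 and 1.88, stood beside 1.94 and 1.97 for the lists as wholes. Covered sequence was summed over merged regions, with the gaps closed by merging included. It came to 12292 bp for vehicle and to 28182 and 27103 bp for 2 h and 12 h of TGFβ. That was 2.29 and 2.20 times the vehicle value, beside 2.04 and 2.14 times over the whole lists. The ratio differed between genes. It was largest at Zeb1, from 499 bp in vehicle to 2294 bp at 2 h and 2705 bp at 12 h, and at Zeb2, from 671 bp to 2536 bp and 2554 bp. Hmga2 changed least in proportion at 12 h, from 2369 bp to 3045 bp and 3091 bp. At Twist1, no vehicle region was found in 100 kb to either side, against 428 bp at 2 h and 449 bp at 12 h.

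By list pattern, 16 of the 38 regions were in all 3 lists (42.1%, 95% Wilson interval 27.9 to 57.8), beside 38.4% of all regions. The 13 TGFβ-only regions made up 34.2% (21.2 to 50.1), beside 28.5% of all. A further 5 belonged to the 2 h list alone (13.2%, beside 12.9%), 3 to the 12 h list alone (7.89%, beside 16.3%) and 1 to vehicle alone (2.63%, beside 1.16%). These intervals cover counting error only, and regions of a locus are not independent. No region was shared by vehicle with a single TGFβ list. Over all regions these patterns were rare too, with 2.25% in vehicle and 2 h and 0.388% in vehicle and 12 h, and with 0 of 38 the interval reached 9.18%. No vehicle region overlapped 18 of the 34 regions found at 2 h (52.9%, beside 50.7% of all 2 h regions) and 16 of the 32 found at 12 h (50%, beside 53.9%). The shares were thus close to those of the whole lists.

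**Figure D2:**
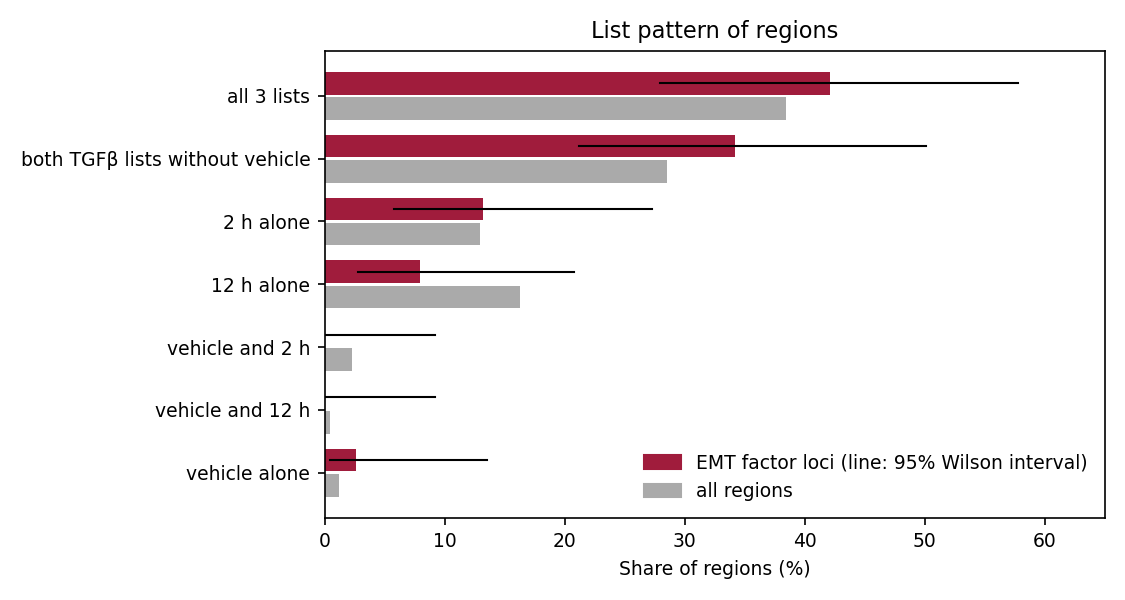
Share of regions (%) with each list pattern, for the 38 regions at EMT factor loci (red, black line for the 95% Wilson interval) and all 39435 regions (grey). TGFβ-only regions were 34.2% at these loci and 28.5% of all.

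The number of TGFβ-only regions depended on the length of the lists. Each TGFβ list was then shortened to its 18337 widest intervals, as many as the vehicle list holds. This left 27 regions at the 8 loci, and 6 of these 27 were TGFβ-only, beside 12.6% of all regions. No interval was computed for this small count, and regions of a locus are not independent. The 6 were 3 at Snai1 and 1 each at Zeb1, Zeb2 and Sox4. At least 1 TGFβ-only region lay near 6 of the 8 genes, beside 62.7% of all protein-coding genes. The exceptions were Twist2 and Hmga2. Of the 13 TGFβ-only regions, 12 lay more than 1000 bp from any annotated transcript start, beside 86.3% of all TGFβ-only regions. Of these 13, 10 were downstream and 3 upstream of the gene's 5′ end, and none covered it.

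Coverage of the 5′ ends divided the genes. Snai1, Snai2, Zeb1, Hmga2 and Sox4 were covered in all 3 lists, Twist2 in the 12 h list only, and Zeb2 and Twist1 in none. That is 5 of 8 in vehicle and at 2 h and 6 of 8 at 12 h, beside 36.0%, 41.5% and 41.6% of all protein-coding genes.

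**Figure D3:**
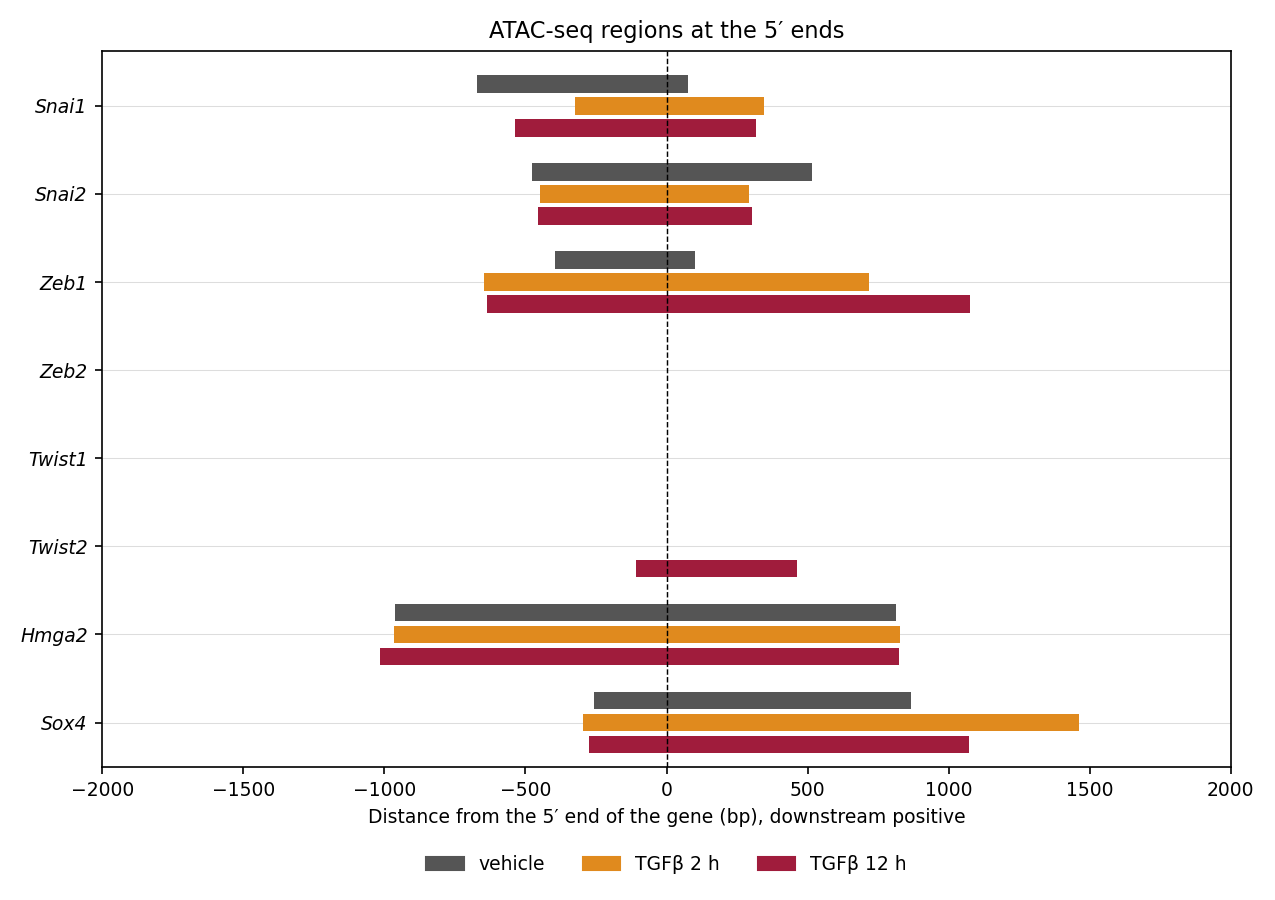
Regions of each list within 2 kb of the 5′ ends (dashed line, distance in bp, downstream positive). The Zeb1 region reached farther downstream in both TGFβ lists than in vehicle, and the Twist2 5′ end had a region in the 12 h list only.

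At Snai1 the region over the 5′ end (chr2:167363022-167364040, with coding and untranslated exon sequence) was 749 bp wide in vehicle, against 671 and 855 bp at 2 h and 12 h. Its edges moved more than its width. In vehicle it ran from -673 to 75 relative to the 5′ end, at 2 h from -325 to 345 and at 12 h from -536 to 318. The downstream edge thus lay farther into the gene in both TGFβ lists. Besides the E-box at -126, the region held one at -522, in the vehicle and 12 h lists but outside the 2 h region, and another at 263 in the first intron, in the TGFβ lists alone.

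Around Snai1, 6 of the 17 regions were TGFβ-only, beside 34.2% over the 8 loci and 28.5% of all regions. Their number was above that of 98.2% of genes, and so was the number of all Snai1 regions. The nearest lay 4846 bp downstream of the 5′ end, beyond the end of the gene and in no protein-coding gene, at chr2:167368541-167369803. Its width was 1205 bp at 2 h and almost the same, 1204 bp, at 12 h. To read such an absence from vehicle, each list was divided by width into 10 bins of equal size. The bins pool regions near and far from transcript starts, and were not made for far ones alone. Over all regions, 42.1% of those in all 3 lists lay more than 1000 bp from a start, beside 86.3% of TGFβ-only ones. In the bin of the region at 4846 bp, 15.5% of all 2 h regions and 17.5% of all 12 h regions had no vehicle region. In the bin of the narrowest regions it was 88.4% in both lists. The region at 4846 bp held neither an AP-1 site nor an E-box. The next ones downstream, at 12272, 14486 and 31708 bp, were 385, 775 and 670 bp wide at the early and 198, 736 and 637 bp at the late time, and each held 1 of the AP-1 sites printed above. In their width bins 78.1, 34.0 and 45.3% of 2 h regions and 88.4, 38.1 and 51.9% of 12 h regions had no vehicle region. The one at 14486 bp overlapped an annotated transcript start, though no protein-coding gene. The remaining ones were a narrow region 5759 bp upstream (152 and 160 bp), in the narrowest bin of both lists, and one 66945 bp downstream (520 and 318 bp), with shares of 57.2 and 84.7%.

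The single region of vehicle alone also lay downstream of Snai1, at chr2:167389690-167390025. It measured 336 bp and had a vehicle peak score of 623, on a scale deposited without a unit that ran from 540 to 1000. The score was the lowest of the 17 vehicle regions at these loci, 10 of which had the highest value (58.8%, beside 52.1% of all vehicle regions). It held an E-box and no AP-1 site.

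A further shared region lay 36488 bp downstream of Snai1 in no protein-coding gene (chr2:167400183-167402087). As merged, it differed more in width between vehicle and TGFβ than any other at these loci. From 485 bp in vehicle it went to 1647 bp at 2 h and to 1845 bp at 12 h. The TGFβ regions were each merged from 2 intervals, so their widths include a gap that is absent from the list itself. Neither 2 h interval was among the 18337 widest, of which the narrowest was 516 bp. The vehicle region was a single interval. The vehicle part held 2 AP-1 sites, and the extension held another, at 38092 bp. It also spanned 4 E-boxes, which at 2 h lay in the gap and in neither listed interval. Of the 17 regions assigned to Snai1 by distance, 9 were nearer to the 5′ end of another gene, Rnf114, Spata2 or Ube2v1. Among them, a region over exons of Spata2 was 511 bp wide in vehicle and 1162 and 712 bp in the TGFβ lists. One over exons of Rnf114 went from 520 to 1489 and 1310 bp, while one over untranslated exons of both genes kept about the same width, with 1379, 1271 and 1313 bp.

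Snai2 had a compact pattern. The region over its 5′ end (chr16:14705469-14706460, with coding and untranslated sequence) spanned 992 bp in vehicle, and 744 and 760 bp after 2 h and 12 h of TGFβ. It was the only one of the 5 covered 5′ ends that was narrower in both TGFβ lists than in vehicle, and the difference lay at its downstream edge, at 515 in vehicle and at 294 and 302 later. The vehicle and 2 h regions had each been merged from 2 intervals. An AP-1 site lay at 253, in the first intron, and an E-box at 51. Narrow TGFβ-only regions flanked the gene, 4211 bp upstream (189 and 190 bp) and 30296 bp downstream (284 and 540 bp). In their width bins between 64.1% and 88.4% of regions had no vehicle region.

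Zeb1 showed the strongest widening of a 5′ end. Its region (chr18:5591210-5592935), which also overlaps the gene model Gm10125, grew from 499 bp in vehicle to 1365 bp at 2 h and 1714 bp at 12 h, 2.74 and 3.43 times the vehicle width. The downstream edge moved from 101 to 716 and 1077, and the upstream edge from -397 to -648 and -636. Each list gave it as a single interval, so merging did not add to its width. The region covered 4 of the annotated Zeb1 transcript starts in every list, whereas later starts, from 1674 bp downstream, were in none. It held 4 E-boxes, 3 of which lay in the vehicle region, at -221, -63 and 64, and the other, at -628, was reached in the TGFβ lists alone.

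The other region at Zeb1 was TGFβ-only and lay 81079 bp upstream, in an intron of Gm10125. Its width was 929 bp after 2 h and 991 bp after 12 h, at which 23.1% and 26.1% of regions had no vehicle region. It held 3 AP-1 sites and 1 E-box. No region of any list lay elsewhere in the window, which includes the first 100 kb of the gene.

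At Zeb2 the annotated 5′ end, at position 44972915 of chromosome 2, was in no list. Coverage was found at a later start of the same gene instead. The region chr2:44964733-44966074 lay 6841 bp downstream and covered 3 of 10 annotated transcript starts in every list, including that of a protein-coding transcript at 7018 bp. Its width was 671 bp in vehicle against 1287 and 1342 bp in the TGFβ lists, and it widened on its downstream side, from 7559 to 8169 and 8182. An AP-1 site at 8091 bp, in an intron, was in this extension and not in the vehicle region. Another 2 AP-1 sites lay in exon sequence within the vehicle region.

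Both TGFβ-only regions of Zeb2 lay in its introns, 67648 and 97175 bp downstream of the 5′ end. The first was 486 bp wide after 2 h and 416 bp after 12 h, widths at which 67.2% and 80.3% of regions had no vehicle region, and held 1 AP-1 site. The second, which lay nearer to the 5′ end of Gtdc1, was 763 and 796 bp wide, with shares of 34.0% and 38.1%, and held 2. Each also held 2 E-boxes, and the second was retained when the lists were shortened.

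The Twist genes stood at the other end. Twist1 had no region over its 5′ end, at position 34642536 of chromosome 12 nor over the rest of the gene. Its only region, chr12:34725767-34726215, lay 83231 bp downstream in no protein-coding gene, with 428 and 449 bp in the TGFβ lists, and held 1 AP-1 site. At this width 67.2% of 2 h and 71.9% of 12 h regions had no vehicle region. Base composition at the 5′ end was also compared, since start sites rich in CpG are often accessible. The ratio of observed to expected CpG in 1 kb around the Twist1 5′ end was 0.870, and at Zeb2 it was 0.706. The median was 0.775 over 7906 genes covered in all lists and 0.268 over 12664 genes covered in none.

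At Twist2 a single 12 h interval of 570 bp lay over the 5′ end (chr1:93697931-93698500, from -107 to 462), with coding and untranslated sequence, while neither other list had one. Regions of this width lacked a vehicle counterpart in 64.1% of cases, a share that pools regions near and far from transcript starts. Among 5′ ends, coverage at 12 h alone was found for 267 of the 22208 protein-coding genes. The Twist2 region was kept in the shortened 12 h list. Inside the gene, 2 intronic regions were in all lists. The first, 14696 bp downstream, had 420 bp in vehicle and 929 and 1037 bp with TGFβ, and the second, 21821 bp downstream, had 545, 489 and 644 bp. Each held 1 AP-1 site within the vehicle region. Another 2 regions were found at 2 h alone, of 224 bp and 732 bp, 73289 and 81290 bp downstream and past the end of the gene.

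Hmga2 had the widest vehicle region of these loci. Over its 5′ end (chr10:119912696-119914540) the region was 1777 bp wide in vehicle, with 1795 and 1839 bp in the TGFβ lists. Its upstream edge lay at -964, -965 and -1015 and its downstream edge at 812, 829 and 823. The other region of the locus, in an intron 53260 bp downstream, went from 592 bp in vehicle to 1250 bp at 2 h and 1252 bp at 12 h. Neither region held an AP-1 site or an E-box, whereas each of the other 7 loci held at least 1 of these sites. The intronic region extended toward the 5′ end of the gene, from 53927 in vehicle to 53260 and 53267.

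At Sox4 the region over the 5′ end (chr13:29044121-29045879) was 1126, 1759 and 1348 bp wide in vehicle, at 2 h and at 12 h. It was widest at 2 h, when its downstream edge lay at 1461, against 868 in vehicle and 1073 at 12 h. A TGFβ-only region 35290 bp downstream, in no protein-coding gene, widened from 971 bp at 2 h to 1442 bp at 12 h, and held 2 AP-1 sites and 3 E-boxes. Of regions this wide, 15.5% at 2 h and 16.3% at 12 h had no vehicle region. It was the widest TGFβ-only region of the 8 loci at 12 h.

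The remaining regions of Sox4 lay at 79109 bp, in all lists with 616, 652 and 668 bp, at 98807 bp, at 2 h alone with 1024 bp, and 4159 bp upstream, at 12 h alone with 194 bp. In the width bin of the one at 2 h alone, 15.5% of 2 h regions had no vehicle region.

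Shared regions were then compared by width, each vehicle region with the single TGFβ region that matched it. At 2 h, 12 of 16 were wider than in vehicle (75.0%, 50.5 to 89.8), beside 82.7% over all matched regions. At 12 h, 14 of 16 were wider (87.5%, 64.0 to 96.5), beside 83.6%. The median difference was 324 bp at 2 h and 154 bp at 12 h, beside 147 and 175 bp over all matched regions. Differences ranged from -248 to 1162 bp at 2 h and from -232 to 1360 bp at 12 h. Both upper ends came from the Snai1 region at 36488 bp, whose TGFβ widths include a gap closed by merging. Widths over 2 times the vehicle width at 2 h were found at Snai1 (3 regions), Zeb1, Twist2 and Hmga2 (1 each). Among those at Snai1 was the region at 36488 bp, as merged.

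**Figure D4:**
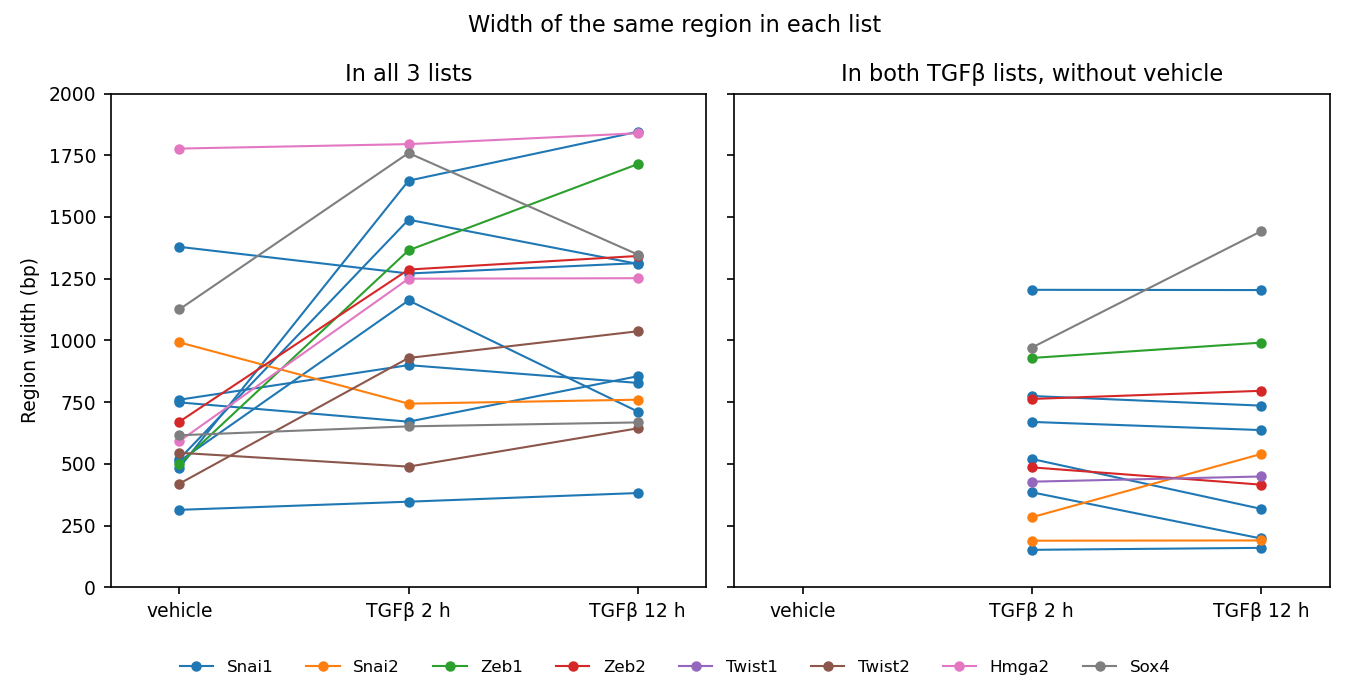
Width (bp) of each region in the 3 lists, for the 16 regions in all lists (left) and the 13 TGFβ-only regions (right), each line a region coloured by gene. The Zeb1 5′ end region went from 499 to 1714 bp, while the Hmga2 one stayed between 1777 and 1839 bp.

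Between 2 h and 12 h, 19 of 29 matched regions were wider at the later time (65.5%, 47.3 to 80.1), beside 57.0% over all. This share differed between loci. At Snai1, 5 of 13 were wider at 12 h, with a median difference of -33.0 bp. At the other 7 genes, 14 of 16 were, with a median difference of 38.5 bp, and the exceptions were the Sox4 5′ end and a TGFβ-only region of Zeb2. The regions of 2 h alone and 12 h alone were also spread unevenly. Snai1 and Twist2 each had 2 at 2 h and 1 at 12 h, Sox4 had 1 of either kind, and the other genes had none.

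Motifs were counted in the central 500 bp of the 25 regions that lay over 1000 bp from a transcript start. For narrower regions this window includes DNA outside the region. AP-1 was present in 12 (48.0%, 30.0 to 66.5), beside 46.0% of all such regions. Among the 12 distal TGFβ-only regions, 7 had it, beside 51.6% of all distal TGFβ-only regions. The TEAD site GGAATG or CATTCC, bound by the partners of YAP, was in 10 (40%, 23.4 to 59.3), beside 32.0%. The SMAD palindrome GTCTAGAC was in 0 of 25, with an interval reaching up to 13.3%, beside 1.00% of all. These motifs can overlap only in a few letters at their ends.

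E-boxes were in this window at 13 of the 25 regions (52.0%, 33.5 to 70.0), beside 30.0% of all distal regions. At the narrow Snai1 region 5759 bp upstream they lay outside the region itself. At the Snai1 region 36488 bp downstream they lay outside the vehicle region and, at 2 h, in the gap closed by merging. Of the distal regions in all 3 lists, 1 of 6 had an E-box, beside 30.8%. Of the TGFβ-only ones, 7 of 12 had an E-box, beside 29.5%. Base composition moved with this. The median GC content of the central 500 bp was 51.2% in the member regions and 46.4% over all, and 12 of the 25 fell in the highest of 5 GC bins, in which 41.1% of all regions had an E-box, and 7 of those 12 did. The part of GC content in the higher share was not tested.

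Other genes of the programme were set beside these. For 11 further factors linked with EMT (Snai3, Tcf3, Tcf4, Foxc2, Gsc, Prrx1, Klf8, Foxq1, Hmga1, Sox9 and Ets1), 15 of 69 regions were TGFβ-only (21.7%), 8 of the 11 genes had at least 1, and the 5′ end was covered in all lists at 5. For 5 factors that keep the epithelial state (Grhl2, Ovol1, Ovol2, Elf3 and Elf5), 7 of 46 were TGFβ-only (15.2%). Counted gene by gene over all protein-coding genes, TGFβ-only regions made up 23.8%.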

How the data were processed

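ATAC-seq libraries of 6 NMuMG samples, 2 per condition, were processed by the authors with the ENCODE-DCC pipeline on mm9. MACS2 2.1.2 called the peaks, and those reproducible by IDR were deposited as 1 list per condition. The deposited lists give start and end in bp, and the vehicle list a peak score without a stated scale. In the TGFβ lists that column numbers the lines and was not used. The lists hold no read counts, and library read totals were not used here.

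Distinct intervals of 150 bp or more were merged across gaps under 1000 bp, in each list and then over the 3 lists, and 1 bp of overlap counted as shared. The 22208 protein-coding symbols of GENCODE vM1 were used, with the longest record per symbol, and a region within 1000 bp of any transcript start was a start-site region. Coordinates are 1-based. Shares carry 95% Wilson intervals. All 8 genes are named, with the region over or nearest to the 5′ end, the nearest TGFβ-only region, the widest at 12 h and each vehicle region missing from a TGFβ list; other regions were named after their values were seen. Members and lists were chosen with earlier results of these data known. Of the list of further EMT factors, 1 gene is not reported here. On simulated intervals and motifs, 0 of 3350 counts differed from direct counting. Python 3.11.15, numpy 2.4.6 and matplotlib 3.10.9 were used.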

Additional observations from a re-analysis of the deposited data

How the results depend on the processing

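No paired analysis was possible because each deposited list was made from both replicates and holds no value per replicate, and for the same reason no replicate was left out. Over 12 results, 104 values under other settings stayed within 1.5 times a count or within the interval of a share, and 12 moved. Shortening the TGFβ lists to 18337 intervals (the narrowest kept were 516 bp at 2 h and 548 bp at 12 h) left 6 TGFβ-only regions in place of 13, and 31.8% of 12 h regions without a vehicle region in place of 50%. Windows of 50 kb held 23 regions, 8 of them TGFβ-only, and windows of 200 kb held 85, with 29 in all lists and 28 TGFβ-only. Requiring 50% reciprocal overlap gave a 2 h share without a vehicle region of 70.6% in place of 52.9%. By this rule a 2 h region over 2 times as wide as its vehicle match counts as lacking one. Such regions lay at Snai1, Zeb1, Twist2 and Hmga2. The cause of their greater width was not tested. Leaving out Snai1, a setting chosen after seeing the data, left 21 regions, 9 in all lists and 7 TGFβ-only, and raised the share wider at 12 h than at 2 h from 65.5% to 87.5%. Keeping only regions nearest to a member's 5′ end, also chosen afterwards, left 28 regions, 11 of them TGFβ-only. Coverage of the 5′ ends does not depend on the window or the nearest gene and was not recomputed there. Other merge distances and width minimums moved no result outside these limits. The lists hold no read counts and library read totals were not used here, so a region absent from a list is only one that did not pass the authors' threshold.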
